A study of Rattus norvegicus with 32 samples.

Results

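Immediate early and stress genes, which many cells switch on soon after a stimulus, were followed through RNA sequencing of rat liver: Fos, Fosb, Jun, Junb, Jund, Egr1, Atf3, Ier2, Dusp1 and Nr4a1. They were chosen by symbol, and not by a threshold on their values, and all 10 were rows among the 17327 genes of the count table. Of the 10, 9 passed the filter on low counts that left 11002 genes for testing, and Fosb, with 136 reads over all libraries, did not. Messenger RNA had been sequenced from the livers of 32 Charles River Sprague Dawley rats under basal conditions, 4 in each of 8 groups. The groups combined sex, genotype and an age of 30 or 60 days. Wild-type (WT) rats carried intact Serpina6, which encodes the plasma carrier of corticosterone made by the liver, corticosteroid-binding globulin (CBG). Knockout (KO) rats carried a disruption of that gene made with CRISPR/Cas9. The labels used here do not say how many founder lines the KO rats descend from, nor the hour at which the livers were collected. Nothing in the labels says that libraries share an animal, so each was taken as 1 rat.

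Immediate early genes are transcribed without new protein synthesis, because the factors that switch them on, such as SRF with its ternary complex partners and CREB, are already bound or ready and are activated by phosphorylation. Fos and Jun family proteins pair through leucine zippers to form AP-1, whose make-up decides how strongly target genes respond, while Egr1 and Nr4a1 bind sites of their own, Atf3 pairs with Jun proteins or represses alone, and Dusp1 switches the inducing MAP kinases off again. In liver these genes are known for their rise at the start of regeneration after partial hepatectomy, in acute injury and during handling or anaesthesia at collection, and glucocorticoids are known to induce Dusp1.

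Promoters of 7 of the 10 genes were found in RefSeq (rat assembly GRCr8, from 250 bases before to 50 bases after the annotated start). Those of Fos, Jun and Atf3 were not found there. Of the 7, 4 are printed. They hold elements through which this gene class is known to be induced, and their genes carry results below. Jund lies on the minus strand at chr16:18769722-18770021, Egr1 on the plus strand at chr18:26736828-26737127, Ier2 on the plus strand at chr19:40399123-40399422 and Dusp1 on the plus strand at chr10:17184603-17184902. Each sequence runs 5′ to 3′ along its gene, and capitals mark the motifs found: in Jund a cyclic AMP response element (CRE) and then an EGR site, in Egr1 a pair of CArG boxes, the element that SRF binds, and in Ier2 and Dusp1 a CRE.
Jund: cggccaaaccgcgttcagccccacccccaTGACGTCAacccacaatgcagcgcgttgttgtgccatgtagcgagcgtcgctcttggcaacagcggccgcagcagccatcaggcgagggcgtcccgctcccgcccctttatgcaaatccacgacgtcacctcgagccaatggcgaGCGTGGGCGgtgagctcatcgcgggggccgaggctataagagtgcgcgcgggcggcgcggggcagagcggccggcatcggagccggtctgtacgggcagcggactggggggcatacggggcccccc
Egr1: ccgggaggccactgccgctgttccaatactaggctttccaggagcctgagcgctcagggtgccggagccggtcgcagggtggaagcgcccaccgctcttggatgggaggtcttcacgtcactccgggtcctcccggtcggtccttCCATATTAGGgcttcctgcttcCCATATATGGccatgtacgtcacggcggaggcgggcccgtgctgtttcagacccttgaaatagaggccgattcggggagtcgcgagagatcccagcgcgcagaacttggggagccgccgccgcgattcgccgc
Ier2: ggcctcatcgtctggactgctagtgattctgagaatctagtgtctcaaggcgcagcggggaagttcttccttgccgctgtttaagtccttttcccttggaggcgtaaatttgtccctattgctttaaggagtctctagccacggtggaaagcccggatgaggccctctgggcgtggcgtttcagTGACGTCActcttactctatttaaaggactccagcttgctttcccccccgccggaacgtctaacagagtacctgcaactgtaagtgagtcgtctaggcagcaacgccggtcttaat
Dusp1: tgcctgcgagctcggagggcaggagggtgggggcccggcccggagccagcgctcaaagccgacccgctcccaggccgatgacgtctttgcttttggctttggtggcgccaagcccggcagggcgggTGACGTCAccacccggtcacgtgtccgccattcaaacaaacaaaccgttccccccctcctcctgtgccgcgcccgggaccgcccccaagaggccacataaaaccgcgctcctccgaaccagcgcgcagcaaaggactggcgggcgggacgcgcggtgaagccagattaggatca
Both strands were searched for 5 motifs, none of which overlapped another here. The full CRE, TGACGTCA, stood in 3 of the 7 promoters, at 221 bases before the start in Jund, 66 in Ier2 and 124 in Dusp1, and in 1.83% of 33469 rat promoters of the same length. CArG boxes stood only in Egr1 among the 7, at 105 and 83 bases before the start (1.64% of all promoters hold one). The EGR site, GCGTGGGCG or GCGGGGGCG, was in Jund and in Nr4a1, at 76 and 73 bases before the start (3.2% of all promoters). The AP-1 site, TGACTCA or TGAGTCA, was in 0 of the 7 (4.63% of all), and the palindrome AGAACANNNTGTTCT of the glucocorticoid receptor in 0 of the 7 (0.0149% of all). The letters G and C made up 47.7% (Fosb) to 72.3% (Nr4a1) of the 7 promoters, against a median of 51.7% over all. The shares over all promoters were not matched for this. These matches describe letters in the window and were not tested for binding.

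The libraries held 12951969 to 21954929 reads on genes, with 16806943 or more in each 30-day library and 17133332 or fewer in each 60-day library, so age and depth cannot be fully told apart. Serpina6 was 12 and 16 times lower in KO than in WT at 30 days (females, males), and 10.8 and 7.75 times lower at 60 days, with adjusted p between 1.52e-10 and 5.89e-08 by edgeR's quasi-likelihood test. All 10 hepatocyte markers were abundant in every library, albumin at 127000 to 207000 CPM (counts corrected for library size). A single library stood apart: replicate 1 of the KO females at 60 days held 2163 CPM summed over 15 photoreceptor genes, against 3.7 to 10.6 CPM in the other 31 libraries. Genes called by edgeR in contrasts that use its group are given with and without that library. The sex-by-genotype test at 60 days and the results of other tools are given with it only. Titles had another form at each age, so any difference in preparation between the ages cannot be told apart from age. Levels below are CPM scaled by the trimmed mean of M-values (TMM), differences are log2 fold changes ± SE from 1 fit to all 32 libraries (n = 4 a group), and a call is a Benjamini-Hochberg adjusted p below 0.05 over the 11002 genes. Levels are compared between groups for 1 gene, not between genes, because transcript lengths were not used. In such bulk tissue, fewer cells of a type and less RNA per cell cannot be told apart.

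**Figure D1:**
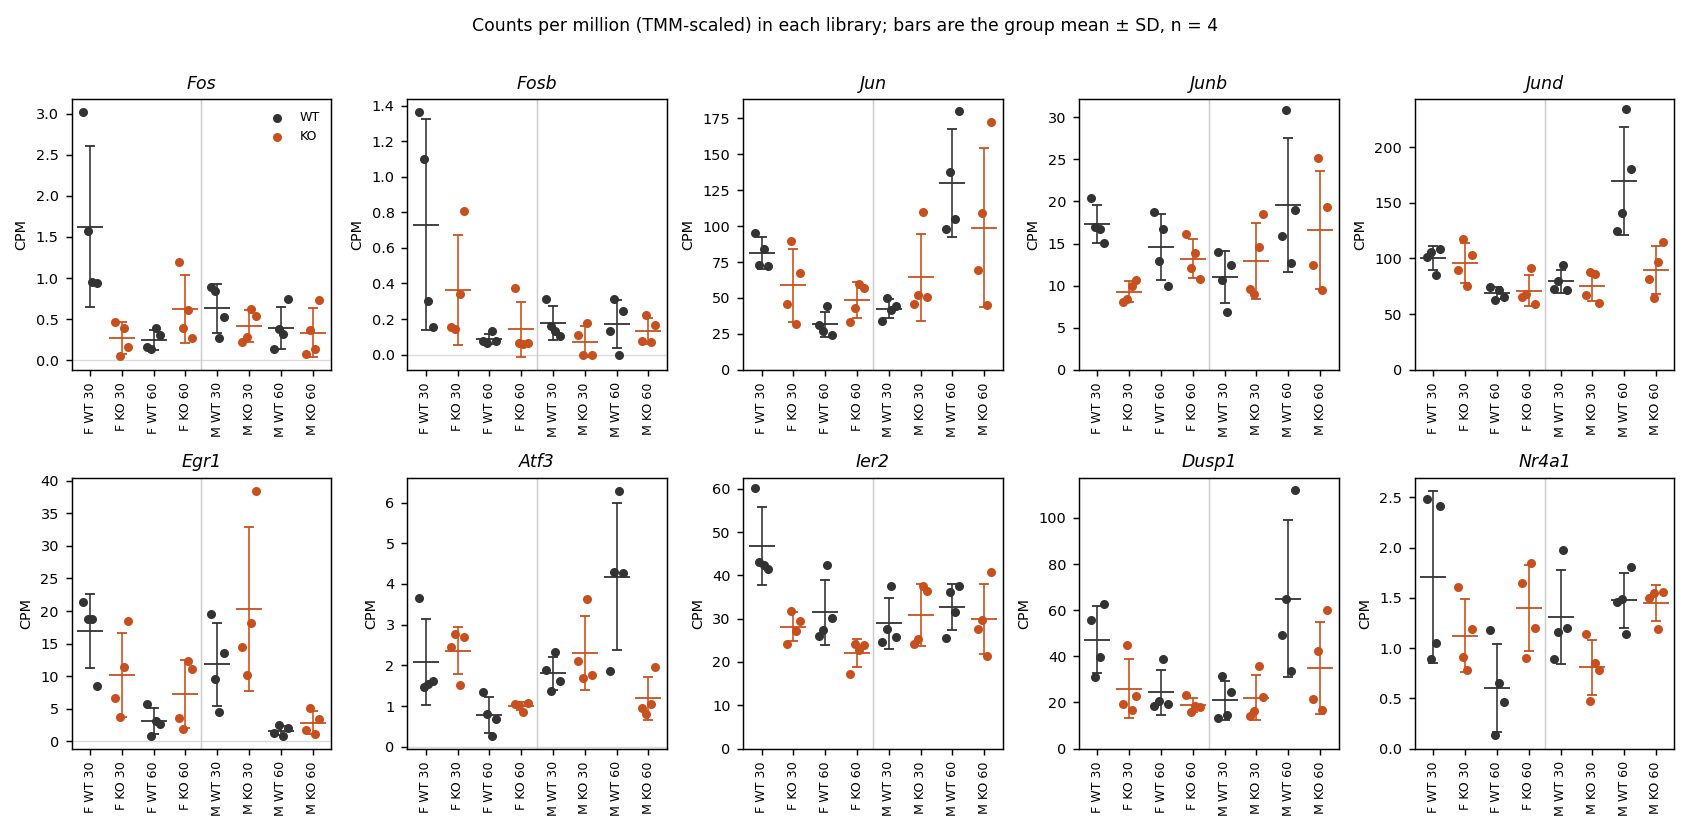
Level of each of the 10 genes in every library, in TMM-scaled CPM on linear axes that differ between panels; points are libraries, long ticks and bars the group mean ± SD (n = 4), black WT and orange KO, females left and males right of the grey line. Fos is highest in the 30-day WT females (0.945 to 3.03 CPM), Jund and Atf3 in the 60-day WT males, and Egr1 is low in all 60-day males (0.763 to 5.18 CPM).

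Loss of CBG went with lower Fos in 30-day females, with lower Jund and Atf3 in 60-day males, while edgeR called none of the 9 tested genes in 30-day males or 60-day females. These 3 calls came among 33 called genes of 11002 in 30-day females (0.3%) and 23 in 60-day males (0.209%), beside 1 of 9 and 2 of 9 tested immediate early genes. Each of the 3 rests on 4 against 4 rats. Of 8 fits that left out 1 library, the call held in 2 for Fos, 2 for Atf3 and 3 for Jund. In fits to only the 8 libraries compared, none of the 3 held.

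Fos, the AP-1 partner whose induction is the classic mark of recent stimulation, stood at 3.03, 1.57, 0.951 and 0.945 CPM in the 30-day WT females (replicates 1 to 4). In the 30-day KO females it stood at 0.468, 0.0479, 0.392 and 0.162 CPM, from 1 to 9 reads a library against 18 to 62 in WT. Every KO female lay below every WT female, as 7.62% of all genes had no overlap in this contrast, and WT replicate 1 was highest of all. Fos reached the 0.585 CPM of the low-count filter in 11 of 32 libraries, 7 of them at 30 days and these 4 WT females among the 7. The fold change was -2.58 ± 0.55, or 5.98 times lower (adjusted p = 0.0334, edgeR). Without WT replicate 1 it was -2.09 with adjusted p = 0.21, and the call held in 2 of 8 fits that left out 1 library, although the direction held in all 8. Titles of 30-day libraries end in a number behind a hyphen, which was 2 for all 4 of these KO rats and 1 for 3 of the 4 WT rats, and its meaning is not stated in the labels. With it as a covariate the fold change was -2.73 and the adjusted p 0.123.

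Other genes of the set were lower in the same females without passing the test, 8 of 9 fold changes being negative with a median of -0.73, against a median of 0.01 and 47.2% negative over all genes. The title number given above differs between these groups for every gene here as well. WT replicate 1 had 9 of 9 tested genes above its group mean. Some of these genes also varied together within groups, as given below, so the 8 are not separate results. Ier2, a small nuclear protein of the first wave, stood at 60.3, 43.2, 42.3 and 41.5 CPM in WT and at 24.3, 31.9, 27.1 and 29.5 CPM in KO. Its groups did not overlap (-0.73 ± 0.19, adjusted p = 0.102 by edgeR), and DESeq2 called it lower (adjusted p = 0.02). Junb, a Jun protein that often restrains c-Jun, stood at 20.4, 17, 16.7 and 15.1 CPM in WT and at 8.05, 8.44, 9.9 and 10.7 CPM in KO. These did not overlap either (-0.90 ± 0.29, adjusted p = 0.21), and a fit to the 8 libraries alone called Junb (adjusted p = 0.0219) but not Fos (adjusted p = 0.102). Groups without overlap were found for 7.62% of all genes in this contrast. Dusp1 was at -0.86 ± 0.42, Egr1 at -0.74 ± 0.55, Nr4a1 at -0.61 ± 0.36 and Jun at -0.47 ± 0.35. Jund, at -0.06 ± 0.18, and Atf3, at 0.18 ± 0.35, stood nearest to 0. Fosb, too low to test, stood at 1.37, 1.1, 0.3 and 0.157 CPM in WT and at 0.156, 0.144, 0.343 and 0.809 CPM in KO, with overlap.

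Stellate and fibroblast markers summed over 10 genes to 1119 to 1510 CPM in the WT and 909 to 1052 CPM in the KO females, without overlap. Of 9 tested 1 was lower. Of all genes 0.3% were called in this contrast and 7.62% had no overlap. The hepatocyte sum was 253000 to 276800 CPM in WT and 220000 to 252500 CPM in KO, with 0 of 10 called. Their part in the result was not tested.

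In 30-day males edgeR called 0 of 9 genes, and DESeq2 and limma-voom also called 0, against 0.0545% of all genes called by edgeR (6 genes). By edgeR 0 of 9 had an unadjusted p below 0.05, against 5.94% of all genes. Fos stood at 0.891, 0.846, 0.264 and 0.522 CPM in WT males and at 0.217, 0.283, 0.628 and 0.537 CPM in KO males (-0.56 ± 0.56). The groups overlapped. Egr1, a zinc finger factor downstream of SRF, was at 0.79 ± 0.54 and Jun at 0.60 ± 0.35, the latter with replicate 3 of the KO males at 110 CPM and the other 3 at 45.5 to 52.1 CPM. The sex-by-genotype test at 30 days, which asks whether the KO effect differs between the sexes, called 0 of 9 and 0% of all genes (0 of 11002 by edgeR, 606 at an unadjusted p below 0.05). Of the 9 genes 4 were below 0.05 before adjustment, while DESeq2 and limma-voom called 0. The difference for Fos was 2.02 ± 0.80 (95% interval 0.38 to 3.67, adjusted p = 0.817), so that the effect in females was not shown to differ from that in males.

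Among 60-day males the lower genes were Jund, the Jun family member that most tissues express at rest, and Atf3, a bZIP factor induced by many stresses. Jund stood at 125, 140, 234 and 180 CPM in WT and at 81.6, 64.2, 96.7 and 115 CPM in KO. Every KO male lay below every WT male, as 4.89% of all genes had no overlap in this contrast, and WT replicate 3 was highest. The fold change was -0.93 ± 0.18, or 1.9 times lower (adjusted p = 0.0294, edgeR). Atf3 stood at 1.86, 4.29, 6.29 and 4.28 CPM in WT and at 0.947, 0.813, 1.05 and 1.97 CPM in KO. WT replicate 1 lay within the KO range and the other 3 WT males above it (-1.81 ± 0.38, 3.52 times lower, adjusted p = 0.0315). Without WT replicate 3 the adjusted p was 0.151 for Jund (-0.73) and 0.173 for Atf3 (-1.54). The calls held in 3 and 2 of 8 fits that left out 1 library, with no change of direction. With only the 16 libraries of 60 days in the fit, the adjusted p was 0.165 and 0.139.

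The other 7 tested genes did not pass in 60-day males. Dusp1, the phosphatase that ends MAP kinase signalling, stood at 49, 65, 33.8 and 112 CPM in WT and at 21.6, 42.2, 16.6 and 60 CPM in KO (-0.89 ± 0.42, adjusted p = 0.451). Its groups overlapped. Jun was at -0.39 ± 0.35, Junb at -0.24 ± 0.28, Fos at -0.21 ± 0.71, Ier2 at -0.13 ± 0.19 and Nr4a1, an orphan nuclear receptor, at -0.02 ± 0.38. Egr1 alone was positive, at 0.81 ± 0.81. Neutrophil markers summed over 8 genes to 1.24 to 2.65 CPM in WT and 2.52 to 5.4 CPM in KO males, with overlap. Only 3 of the 8 passed the filter on low counts, and 0 of those were called. The part of these markers in the result was not tested.

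In 60-day females, where 6.77% of all genes (745) were called, edgeR called 0 of 9 immediate early genes. An unadjusted p below 0.05 was found for 2 of the 9 and for 20.8% of all genes. DESeq2 called 1, Nr4a1, and limma-voom 0. Nr4a1 stood at 1.18, 0.134, 0.651 and 0.461 CPM in WT and at 1.65, 0.903, 1.84 and 1.2 CPM in KO. WT replicate 1 overlapped the KO range (1.22 ± 0.42, adjusted p = 0.0822 by edgeR and 0.0498 by DESeq2). Ier2 stood at 26.1, 27.4, 42.5 and 30.1 CPM in WT and at 17.2, 24.2, 22.8 and 24 CPM in KO. All 4 KO females were lower than all 4 WT females (-0.52 ± 0.20, adjusted p = 0.115), as they were at 30 days, and 8.43% of all genes had no overlap in 60-day females. Fos stood at 0.158, 0.134, 0.391 and 0.307 CPM in WT and at 1.2, 0.387, 0.615 and 0.267 CPM in KO, the highest value being in the library with photoreceptor transcripts (1.26 ± 0.68, adjusted p = 0.298). Neither with nor without that library was any of the 9 called. Of the others, Egr1 was at 1.26 ± 0.66, Jun at 0.61 ± 0.36, Atf3 at 0.39 ± 0.46 and Jund at 0.05 ± 0.18. Dusp1 was at -0.38 ± 0.44 and Junb at -0.15 ± 0.29. The neutrophil sum was 1.35 to 1.97 CPM in WT and 2.71 to 5.28 CPM in KO females, without overlap and with 0 of 3 tested markers called, and its part in these values was not tested.

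**Figure D2:**
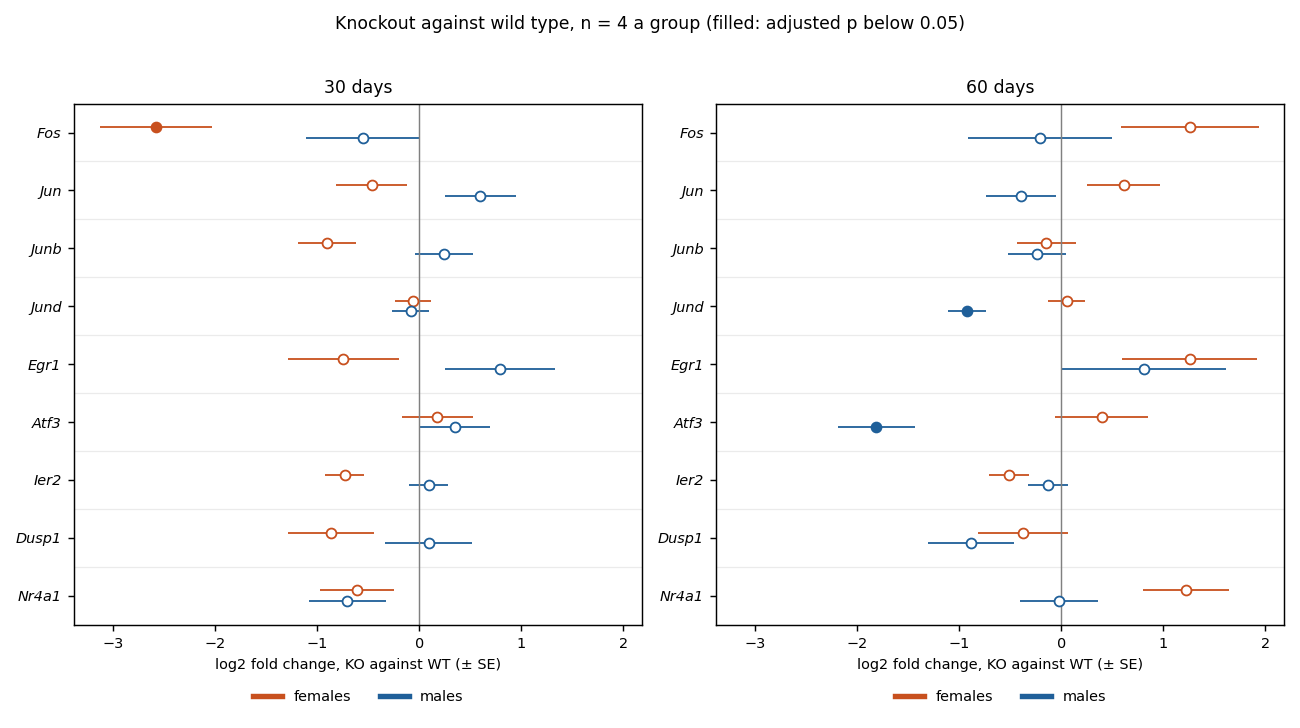
Log2 fold change of KO against WT (horizontal axis, ± SE from edgeR, n = 4 a group) for the 9 tested genes in females (orange) and males (blue), at 30 days on the left and 60 days on the right; filled circles have an adjusted p below 0.05. Fos in 30-day females (-2.58), and Jund (-0.93) and Atf3 (-1.81) in 60-day males, are the filled points.

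The sex-by-genotype test at 60 days called 0 of 9 (0.136% of all genes, 15). By edgeR 3 of the 9 had an unadjusted p below 0.05, against 10.6% of all genes. DESeq2 called 2, Jund and Atf3, and limma-voom 0. By edgeR the KO effect in males minus that in females was -0.98 ± 0.26 for Jund (adjusted p = 0.126) and -2.21 ± 0.59 for Atf3 (adjusted p = 0.127). The age-by-genotype test in females called 1 of 9 against 2.96% of all genes. This was Fos, whose KO effect rose by 3.84 ± 0.87 on the log2 scale between 30 and 60 days (95% interval 2.04 to 5.63, adjusted p = 0.0135). Fos had 18 to 62 reads a library in 30-day WT and 1 to 9 in 30-day KO females. At 60 days it had 2 to 6 in WT and 4 to 16 in KO females. The title number was not used in this test, since 60-day titles carry none. The call held in 15 of 16 fits that left out 1 library, and without the 60-day KO female with photoreceptor transcripts the value was 3.34 with adjusted p = 0.054. Of the stellate and fibroblast markers 3 of 9 were called higher in the same test (median 0.885), and 0 of 9 without that library. Their sum at 60 days was 311 to 468 CPM in WT and 479 to 513 CPM in KO females, without overlap, and their part in the value for Fos was not tested. Nr4a1 had 1.83 ± 0.56 (adjusted p = 0.0653, and 0.0278 by DESeq2). In males the age-by-genotype test called 0 of 9 (0.00909% of all genes, 1), while DESeq2 called 1, Atf3, and limma-voom 0. Of the 9, 2 had an unadjusted p below 0.05 by edgeR, against 5.34% of all genes. The value for Atf3 was -2.16 ± 0.52 (adjusted p = 0.169 by edgeR), and for Jund -0.84 ± 0.26 (adjusted p = 0.551).

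Related genes stood on lists that were written with earlier results of these data known. In neither sex was any member of the 9 lists called at 30 days by edgeR. Among all genes 0.3% were called in females and 0.0545% in males at that age. Of other immediate early transcription factors 0 of 14 were called, and of other immediate early genes 0 of 21. In females the medians of those lists were -0.24 and -0.26, with 12 of 14 and 18 of 21 negative. In males they were 0.32 and 0.13, with 11 of 14 and 14 of 21 positive. Over all genes 47.2% of fold changes were negative in females and 48.9% in males. In 60-day males 1 of the 14 factors changed, where 0.209% of all genes were called: Cebpb, a bZIP factor of the liver acute phase, fell by 1.01 ± 0.17 (adjusted p = 0.00792), from a mean of 75.2 to 37.4 CPM. Every other list had 0 called in those males, with medians of -0.24 for 14 glucocorticoid-induced genes and 0.11 for 11 clock genes. In 60-day females, against 6.77% of all genes, 0 of those 14 changed, while 1 of 21 other immediate early genes, the kinase Pim3, and 1 of 15 upstream kinases and factors, the p38 kinase Mapk14, were lower. Of 7 other MAP kinase phosphatases 1 was higher there, Dusp8. Of 14 glucocorticoid-induced genes 3 were lower (Zbtb16, Pck1 and Klf9), and of 11 clock genes 4 were higher (Per3, Per2, Tef and Dbp) and 1 lower. No member of the integrated stress response (8 tested), heat shock (9) and other AP-1 partner (7) lists was called. Their medians were -0.12, -0.23 and -0.09, and 0 were called in the fit described next too. In a fit without the library with photoreceptor transcripts, added after seeing the data, 3.64% of all genes were called in 60-day females. The same 4 clock genes were then higher and 0 lower, Zbtb16, Pck1 and Pim3 were lower, and Klf9, Dusp8 and Mapk14 were not called (adjusted p = 0.0595, 0.162 and 0.127 by edgeR). A single glucocorticoid-induced gene, the cell cycle inhibitor Cdkn1a, was called higher in that fit alone of the 2 and is named after its value was seen (1.13 ± 0.25, adjusted p = 0.0116). Clock genes change with the hour of collection, which the labels do not give, and their part in the values of the immediate early genes was not tested.

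Age went with lower levels of most of the set in WT females and with higher levels of most called genes in WT males. From 30 to 60 days 7 of 9 genes fell in WT females and 0 rose, where 33.1% of all genes were called. In WT males 5 of 9 rose and 1 fell, where 31.5% of all genes were called. KO rats had 1 of 9 called in each sex, against 22.7% of all genes in females and 28.4% in males. Whether the change with age differed between the sexes was not tested.

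In WT females Fos fell by 2.67 ± 0.59 (6.36 times lower, adjusted p = 0.000808), its 60-day values of 0.134 to 0.391 CPM all lying under the 30-day values, and 29.4% of all genes had no overlap in this contrast. Egr1 stood at 21.4, 18.7, 18.8 and 8.56 CPM at 30 days and at 5.75, 0.874, 3.13 and 2.61 CPM at 60 days. Its groups did not overlap, and it fell by 2.47 ± 0.63 (adjusted p = 0.00374). Jun stood at 95.4, 72.7, 84.4 and 72.1 CPM at 30 days and at 30.9, 27.3, 44.2 and 24.3 CPM at 60 days. Again the ages did not overlap, and Jun fell by 1.35 ± 0.36 (adjusted p = 0.00461). Nr4a1 fell by 1.51 ± 0.41, Atf3 by 1.45 ± 0.41, Ier2 by 0.57 ± 0.19 and Jund by 0.55 ± 0.18 (adjusted p between 0.00488 and 0.0218). Without the 30-day WT female replicate 1 the adjusted p of Ier2 was 0.111 and that of Atf3 0.0641, and without 60-day replicate 2 that of Jund was 0.0595. Dusp1, at -0.95 ± 0.43 (adjusted p = 0.0892), and Junb, at -0.24 ± 0.28, did not pass. Fosb stood at 0.157 to 1.37 CPM at 30 days and at 0.0672 to 0.13 CPM at 60 days, and a fit with no filter on low counts called it lower (-2.94 ± 0.83, adjusted p = 0.0083).

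In KO females Atf3 was the called gene, falling by 1.23 ± 0.39 (adjusted p = 0.0201, and 0.0386 without the library with photoreceptor transcripts). It stood at 2.44, 2.78, 1.52 and 2.7 CPM at 30 days and at 1.05, 1.03, 0.861 and 1.07 CPM at 60 days. The ages did not overlap, as for 23.6% of all genes in KO females. Fos, at 1.17 ± 0.63, and Egr1, at -0.47 ± 0.58, did not pass there. Junb was higher at 60 days, at 8.05 to 10.7 CPM and then 10.8 to 16.1 CPM. Ier2 was lower, at 24.3 to 31.9 CPM and then 17.2 to 24.2 CPM. Neither overlapped between the ages, and neither was called. A fit to the 8 libraries alone called Junb higher (0.52 ± 0.14, adjusted p = 0.0247 by edgeR).

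In WT males Jun stood at 34.1, 50, 41.4 and 44.4 CPM at 30 days and at 97.7, 138, 105 and 180 CPM at 60 days. All 4 older males were higher, as 29.1% of all genes had no overlap between the ages in WT males, and Jun rose by 1.61 ± 0.35 (3.06 times, adjusted p = 0.00102). Jund stood at 72.6, 80, 94.1 and 71.2 CPM at 30 days and, as given above, at 125 to 234 CPM at 60 days. It rose by 1.09 ± 0.18 (adjusted p = 3.64e-05) without overlap. Dusp1 stood at 13.2, 31.3, 14.3 and 24.5 CPM at 30 days, below all 4 older males, and rose by 1.64 ± 0.43 (adjusted p = 0.00466). Atf3 rose by 1.21 ± 0.34 (adjusted p = 0.008) and Junb by 0.84 ± 0.29 (adjusted p = 0.0256), both with overlap between the ages. Without 60-day replicate 3 the adjusted p of Atf3 was 0.0544, and without 60-day replicate 2 that of Junb was 0.173. In KO males Jun was at 0.62 ± 0.35, Jund at 0.25 ± 0.18, Dusp1 at 0.66 ± 0.43 and Atf3 at -0.96 ± 0.38, none of them called. Nr4a1 was at 0.84 ± 0.39 (adjusted p = 0.111) without overlap between the ages, as 31.4% of all genes were in that contrast.

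Egr1 was lower at 60 days in males of both genotypes. In WT males it stood at 19.6, 9.57, 4.49 and 13.6 CPM at 30 days and at 1.33, 2.43, 0.763 and 1.98 CPM at 60 days. In KO males it stood at 14.4, 10.2, 18.1 and 38.5 CPM at 30 days and at 1.74, 5.18, 1.12 and 3.36 CPM at 60 days. All 8 older males lay below the younger males of their genotype. Of all genes 29.1% had no overlap between the ages in WT males and 31.4% in KO males. Egr1 fell by 2.86 ± 0.69 in WT (adjusted p = 0.00254) and fell by 2.84 ± 0.64 in KO males (adjusted p = 0.00146) on the log2 scale. Both calls held in all 8 fits that left out 1 library. The 2 CArG boxes printed above stand in this gene's promoter, and their part in the fall with age was not tested.

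Of the related lists, other immediate early genes had 3 of 21 higher and 6 lower with age in WT females (median -0.25), and 6 higher and 0 lower in WT males (median 0.18), where 33.1% and 31.5% of all genes were called. In KO females 3 were higher and 2 lower (22.7% of all genes called), also without the library with photoreceptor transcripts, and in KO males 4 were higher and 1 lower (28.4% of all genes called). Other immediate early factors had 0 of 14 higher and 1 lower in WT females and 3 higher and 0 lower in WT males, and 1 higher and 3 lower in KO males. Of 9 tested heat shock genes 3 were higher and 1 lower in WT rats of each sex, 3 higher and 0 lower in KO females with and without that library, and 0 changed in KO males by edgeR. The sum of stellate and fibroblast markers was 909 to 1518 CPM over the 30-day libraries and 311 to 675 CPM over the 60-day libraries, without overlap. Their part in the age results was not tested.

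At 30 days no difference between the sexes passed edgeR's test in the 9 genes. In WT rats all 9 fold changes of males against females were negative (median -0.66), against 49.3% negative over all genes. Of the 9, 5 had an unadjusted p below 0.05 by edgeR, against 12.9% of all genes, and 0 were called, against 2.07%. DESeq2 and limma-voom each called 1, Ier2. Ier2 stood at 24.7, 27.7, 37.6 and 25.7 CPM in WT males, under all 4 WT females (-0.69 ± 0.19, adjusted p = 0.0501 by edgeR, 0.0133 by DESeq2 and 0.0342 by limma-voom). Fos (-1.38 ± 0.49), Jun (-0.93 ± 0.35) and Junb (-0.66 ± 0.28) also had every WT male below every WT female, as 9.18% of all genes had no overlap there. In KO rats of 30 days edgeR, DESeq2 and limma-voom called 0 of 9 (2.24% of all genes were called by edgeR). By edgeR 0 of 9 had an unadjusted p below 0.05, against 13.2% of all genes. There the fold changes ran from -0.47 for Nr4a1 to 1.01 for Egr1.

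At 60 days WT males had higher levels than WT females in 5 of 9 genes and lower levels in 0, where 26.4% of all genes were called. Jun, at 97.7 to 180 CPM in males and 24.3 to 44.2 CPM in females, was higher by 2.03 ± 0.36 (4.1 times, adjusted p = 0.000117). Jund stood at 74.3, 62.7, 72 and 65.3 CPM in females, far below the males, and was higher in males by 1.31 ± 0.18 (2.48 times, adjusted p = 3.33e-06). Atf3 stood at 1.34, 0.807, 0.26 and 0.692 CPM in females and was higher in males by 2.45 ± 0.40 (5.47 times, adjusted p = 2.27e-05). No WT male overlapped a WT female in these 3, as 22.7% of all genes had no overlap there, and their calls held in all 8 fits that left out 1 library. Dusp1 was higher by 1.40 ± 0.43 (adjusted p = 0.016) and Nr4a1 by 1.29 ± 0.42 (adjusted p = 0.023), each with overlap. Without male replicate 4 the adjusted p of Dusp1 was 0.0907, and without female replicate 2 that of Nr4a1 was 0.0981. Fos (0.58 ± 0.73), Junb (0.43 ± 0.29), Ier2 (0.05 ± 0.19) and Egr1 (-0.91 ± 0.79) did not pass.

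In KO rats of 60 days 1 of 9 genes was called, where 18.5% of all genes were. Jun stood at 69.2, 109, 45.2 and 172 CPM in KO males and at 33.4, 43.1, 60 and 57 CPM in KO females. Male replicate 3 lay within the female range and the other 3 males above it (1.03 ± 0.35, adjusted p = 0.0412). Without male replicate 4 it was 0.62 with adjusted p = 0.247, and without the female with photoreceptor transcripts 0.89 with adjusted p = 0.131. Jund was at 0.33 ± 0.18, Atf3 at 0.24 ± 0.43, Dusp1 at 0.89 ± 0.44 and Nr4a1 at 0.05 ± 0.38. Whether these sex differences depend on genotype is what the sex-by-genotype test at 60 days, given above, asked, and it called 0 of 9 by edgeR.

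Kupffer cell markers summed to 752 to 1231 CPM in 60-day WT females and 574 to 710 CPM in 60-day WT males over 11 genes, with 5 of 11 lower in males, where 26.4% of all genes were called. Their part in the sex differences was not tested. Of other immediate early genes 7 of 21 were higher and 4 lower in WT males of that age, against the same 26.4% of all genes. In KO males 4 were higher and 0 lower, where 18.5% of all genes were called, and 2 higher and 0 lower without the female with photoreceptor transcripts (15.2% of all genes called). Heat shock genes had 0 of 9 higher and 3 lower in WT males (26.4% of all genes called).

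**Figure D3:**
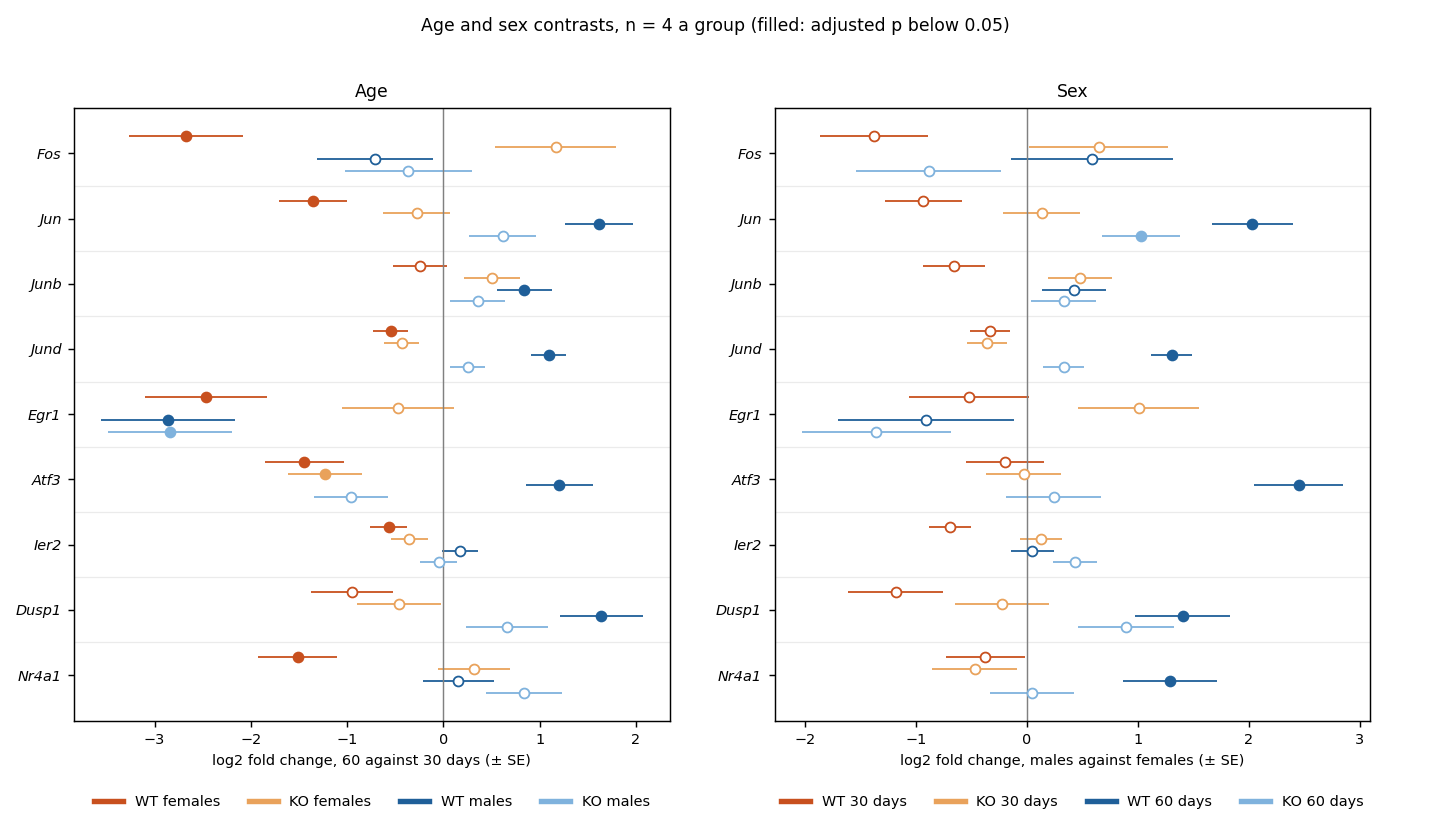
Log2 fold changes (horizontal axes, ± SE from edgeR, n = 4 a group) of 60 against 30 days on the left and of males against females on the right for the 9 tested genes, with 1 colour for each group or age as keyed; filled circles have an adjusted p below 0.05. In WT females the 7 filled age points lie left of 0, in WT males 5 lie right and Egr1 left (-2.86), and the filled sex points are all at 60 days and right of 0.

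Taking the order of the group means, Fos ran from 1.62 ± 0.98 CPM in 30-day WT females down to 0.248 ± 0.122 CPM in 60-day WT females, the other 6 groups lying between 0.267 and 0.631 CPM with overlapping values. For Jund the 60-day WT males came first at 170 ± 48.6 CPM and the 30-day WT females next at 100 ± 10.5 CPM. The remaining 6 groups ran from 68.6 to 96 CPM, neighbours within 1 SD of each other. Atf3 was likewise highest in 60-day WT males (4.18 ± 1.81 CPM), then between 1.8 and 2.36 CPM over the 4 groups of 30 days and between 0.774 and 1.19 CPM over the other 3 groups of 60 days. Jun was highest in 60-day WT males (130 ± 37.7 CPM) and 60-day KO males (99 ± 55.5 CPM), which overlapped, and lowest in 60-day WT females (31.7 ± 8.79 CPM).

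Within groups these genes varied more than most. The pooled within-group SD of log2 CPM was 0.923 for Egr1, larger than for 99.1% of the genes tested, and 0.73 for Fos, 0.601 for Dusp1, 0.542 for Nr4a1, 0.533 for Atf3, 0.499 for Jun and 0.421 for Junb. Ier2, at 0.283, and Jund, at 0.27, varied least of the 9, and the median gene had 0.19. Fos, Atf3 and Nr4a1 rest on low counts, at most 62, 99 and 51 reads a library. Against the genes nearest to each in mean log2 CPM, the spread of Egr1, Dusp1, Jun and Junb was larger than for 98.8%, 98.6%, 97.4% and 96.8%. On that measure Ier2 (93.4%) and Jund (92%) stood above Fos (83.2%), Atf3 (82%) and Nr4a1 (76.8%).

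The deviations of single libraries from their group means were shared by some of the genes. Of 36 pairs 33 had a positive Pearson r over the 32 libraries, and 5 pairs had an adjusted p below 0.05 for both r and rho (permutation within groups, 100000 draws, adjusted over the 36 pairs). The same shares over pairs of other genes were not computed, so the values are not shown to be particular to this set. Jun and Dusp1 had r = 0.80 (rho = 0.757, adjusted p = 0.00054 and 0.0016 by permutation), with 0.781 over the 30-day and 0.816 over the 60-day libraries and 0.745 without the 2 libraries farthest from the median of Jun. Jun and Ier2 had r = 0.724 (rho = 0.71, adjusted p = 0.00054 and 0.0016 by permutation), with 0.534 and 0.869 by age and 0.651 without 2 libraries. Junb and Egr1 had r = 0.675 (rho = 0.69, adjusted p = 0.0011 and 0.0019 by permutation), with 0.857 and 0.564 by age and 0.648 without 2 libraries. For Ier2 and Dusp1, both of which hold a CRE in the promoters printed above, r was 0.573 (rho = 0.552, adjusted p = 0.039 and 0.042 by permutation), with 0.427 and 0.692 by age and 0.461 without 2 libraries. Jund, which also holds a CRE, had r = 0.127 with Dusp1 and 0.271 with Ier2 (adjusted p = 0.66 and 0.34 by permutation). The part of the CRE in these correlations was not tested. Fos and Junb had r = 0.533 (rho = 0.595, adjusted p = 0.049 and 0.018 by permutation), with 0.597 and 0.494 by age and 0.525 without 2 libraries. Jund ran against Junb (r = -0.33) and Egr1 (r = -0.28), neither past the threshold, and with Atf3 (r = 0.491, adjusted p = 0.058 and 0.12 by permutation).

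In 4 libraries all 9 tested genes lay above the mean of their group: replicate 1 of the 30-day WT females, replicate 3 of the 30-day KO males, replicate 4 of the 60-day WT males and replicate 4 of the 60-day KO males. Their mean deviations were 0.461, 0.423, 0.391 and 0.621 on the log2 scale. The lowest libraries were replicate 3 of the 60-day KO males, at -0.53 with 1 of 9 above the mean, and replicate 2 of the 60-day WT females, at -0.42 with 1 of 9.

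**Figure D4:**
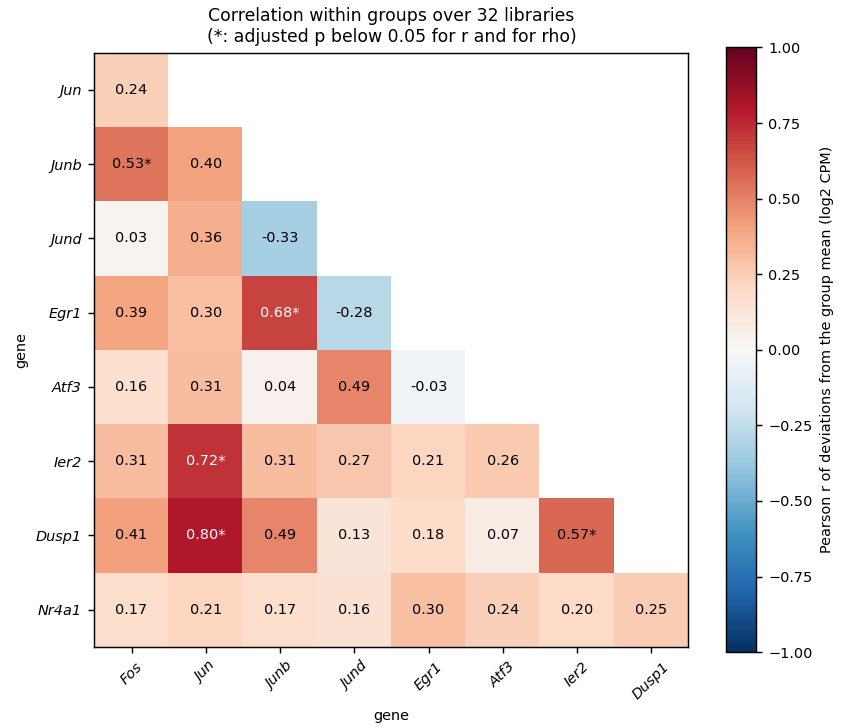
Pearson r between each pair of the 9 tested genes, computed over 32 libraries from deviations of log2 CPM from the group mean (colour scale from -1 to 1, values printed); asterisks mark the 5 pairs with an adjusted p below 0.05 for r and for rho. Jun, Ier2 and Dusp1 form 1 block of red cells (0.57 to 0.80), and Junb pairs with Egr1 (0.68) and Fos (0.53).

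Outside the set, the genes whose deviations ran closest to each of 4 members were listed as a description, over 10093 tested genes of at least 1 CPM and the same 32 libraries, which share depth and scaling. With Dusp1 these were Foxa1, a pioneer factor of hepatocytes (r = 0.835), Acvr1c, an activin-type receptor (0.807), P3h2 (0.764), Mier3 (0.741) and Hhex, a homeobox factor of liver (0.734). Closest to Egr1 were Mxd1 (0.678), Mapkap1 (0.646), Fbxo32 (0.624), Mafg (0.623) and RGD1309676 (0.62). Atf3 was matched best by Tmem168 (0.679), Bcl3 (0.614), Csk (0.613), Hnrnpd (0.604) and Paf1 (0.598). Fos was matched best by Ppp1r9b (0.698), Prkch (0.697), Plod2 (0.663), Abcc1 (0.636) and Kazn (0.625).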

How the data were processed

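Liver RNA sequencing of 32 rats was analysed. The authors deposited raw counts of reads per gene for 17327 genes. Another 2 lines, of unassigned reads (18.05% to 21.18%) and of ambiguous ones (0.262% to 0.648%), stayed out of library sizes. Trizol extraction and a stranded mRNA kit were used, per the labels' protocols. STAR, Cufflinks, limma and the assembly Rnor_5.0 are named in the submitters' processing notes, with no role or version. Groups followed the labels. Columns of the 60-day libraries were matched by their titles. Replicate numbers follow sample order. Where nothing says that samples came from separate animals, p-values measure only the spread between them.

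The tool for the main test was edgeR 4.0.16 (R 4.3.3). Low genes were removed by filterByExpr with a count of at least 10 and group size 4, libraries were scaled by TMM, and 8 group means were fitted to 32 libraries by robust quasi-likelihood, leaving 24 residual degrees of freedom. This left 11002 genes, over which p-values were adjusted within each contrast (Benjamini-Hochberg, 0.05). Correlations used log2 CPM (prior count 2) minus the group mean. The code was tested on simulated data. The 10 genes and the related lists were chosen with earlier results of these data known.

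Named genes were the 10 members, whatever their values, up to 4 called members of each related list in each KO contrast, the 5 closest genes to Fos, Egr1, Atf3 and Dusp1, Serpina6 and hepatocyte markers. Alternatives were DESeq2 1.42.0, limma-voom (limma 3.58.1), upper-quartile scaling, no filter, fits to 16 or 8 libraries, the title number as a covariate and leaving out 1 library. The lists without replicate 1 of the 60-day KO females were added after seeing the data. The deposited log2 table was not used here. Promoters came from RefSeq (GRCr8), motifs from exact matches.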

Additional observations from a re-analysis of the deposited data

Results flagged for a closer look

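Of 80 groups of 4 libraries tested for a single distant value (10 genes in 8 groups), 6 held one, and chance gives about 1 in 20. Fosb was at 0.375 CPM (5 reads) in replicate 1 of the 60-day KO females, the library with photoreceptor transcripts, and at 0.0615 to 0.0669 CPM in the other 3. Jun was at 110 CPM in replicate 3 of the 30-day KO males against 45.5 to 52.1 CPM in the others. Replicate 1 of the 30-day WT females stood apart for both Atf3 (3.66 CPM against 1.47 to 1.63 CPM) and Ier2 (60.3 CPM against 41.5 to 43.2 CPM), and it had all 9 tested genes above its group mean. Dusp1 was at 39 CPM in replicate 3 of the 60-day WT females against 18.4 to 20.8 CPM. In replicate 3 of the 60-day KO males Nr4a1 was low, at 1.19 CPM against 1.5 to 1.56 CPM.

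The effect of genotype on Fos in females differed between the ages by 3.84 on the log2 scale, by edgeR's age-by-genotype test (adjusted p = 0.0135, and 0.054 without replicate 1 of the 60-day KO females). At 30 days all 4 KO females had less Fos than all 4 WT females, and at 60 days the groups overlapped with a higher mean in KO.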

How the results depend on the processing

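Of the 25 calls on single genes, the other settings gave 133 values, of which 117 remained past the threshold, 16 did not and 0 changed direction. Leaving out 1 library gave 208 values, with 166 past the threshold and 0 of the opposite sign. Upper-quartile scaling shifted the median of all genes by at most 0.0626 in size. The number of called genes of the set changed as follows, and the cause was not tested. For KO against WT in 30-day females (1 gene) it was 2 with DESeq2, 0 with no filter or with the title number as covariate, and 0 to 1 with 1 library left out. In 60-day females (0) DESeq2 gave 1 and leaving out 1 library 0 to 1. In 60-day males (2) DESeq2 and limma-voom gave 1, where DESeq2 gave no adjusted p for Atf3, the fits to 16 and to 8 libraries gave 0, and leaving out 1 library 0 to 2. With age in WT females (7) the fit to 8 libraries gave 6, without Nr4a1, no filter 8 and leaving out 1 library 5 to 8, where Ier2 and Jund were each lost in 4 of 8 fits. In WT males (6) the fit to 8 libraries gave 5, without Junb, and leaving out 1 library 5 to 6, where Junb was lost in 3 of 8 fits. With age in KO females (1) limma-voom gave 0, the fit to 8 libraries 2 and leaving out 1 library 0 to 2. In KO males (1) upper-quartile scaling and the fit to 8 libraries gave 2 and leaving out 1 library 1 to 2. Between the sexes in 30-day WT (0), DESeq2, limma-voom, upper-quartile scaling and the fits to 16 and 8 libraries each gave 1, and leaving out 1 library 0 to 1. In 60-day WT (5) the fit to 8 libraries gave 3 and leaving out 1 library 3 to 5. In 60-day KO (1) limma-voom and the fits to 16 and 8 libraries gave 0 and leaving out 1 library 0 to 2. For sex by genotype at 60 days (0) DESeq2 gave 2 and leaving out 1 library 0 to 1. For age by genotype DESeq2 gave 2 in females (1) and 1 in males (0), and leaving out 1 library 0 to 2 in females. No paired analysis was possible because no label ties a rat of one group to a rat of another. Counts were lowest for Fosb, Nr4a1 and Fos, at most 28, 51 and 62 reads in a library.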
